A study of Mus musculus with 10 samples.

Results

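Open chromatin was described around the 3 Nr4a genes, Nr4a1, Nr4a2 and Nr4a3, in bulk ATAC-seq peak lists from nuclei of the mouse ventral tegmental area, a midbrain region that holds dopamine neurons. ATAC-seq marks open chromatin by the adapters that the Tn5 transposase inserts into it. The members are the peaks that overlap each gene together with 20 kb on each side, in mm39 coordinates. Across the 10 libraries these windows held 94 distinct peak intervals, which merged into 21 regions of the 74593 regions in the whole series. Nr4a1 had 10 of them (52 intervals), Nr4a2 had 5 (19 intervals) and Nr4a3 had 6 (23 intervals).

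All libraries came from adult mice older than postnatal day 60 with the genotype ArcCreERT2 x Sun1/+. In these mice a tamoxifen-dependent Cre under the control of the activity-induced gene Arc marks cells with the nuclear envelope tag Sun1-myc-sfGFP, and tagged nuclei were isolated from all nuclei by magnetic immunoprecipitation. The tag is thus not restricted to dopamine neurons, and each library is a mixture of the cell types that were present. Whether this mixture differs between activated and non-activated libraries was not tested, and it cannot be told apart from activation here. There were 3 libraries of activated nuclei from mice with early-life stress and 2 of activated nuclei from standard-reared mice. Non-activated nuclei gave 3 libraries from stressed mice and 2 from standard-reared mice. Each library was from a single animal, and 4 of the 6 animals gave both an activated and a non-activated library. The standard-reared non-activated libraries were both from females, and each other group held both sexes. The labels in use do not say what stimulus preceded the tagging.

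The Nr4a genes encode orphan nuclear receptors, transcription factors of the steroid receptor family for which no classical hormone ligand is needed. All members are immediate early genes, and in neurons their transcription is switched on by calcium and cyclic AMP signalling through the CREB family, which binds the cyclic AMP response element (CRE). The receptors bind DNA as monomers at the NBRE motif, and Nr4a1 (Nur77) and Nr4a2 (Nurr1) also pair with the retinoid X receptor. Nr4a2 is required for the formation and upkeep of midbrain dopamine neurons, where it acts on the genes of dopamine synthesis and transport. Nr4a1 is known as a regulator of neuronal responses to activity and of cell survival, and Nr4a3 (Nor-1) as a related receptor that activity also induces.

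The 250 bases before the transcription start are shown because all 3 genes shared a cluster of the CRE core TGACG there. They are RefSeq sequences of GRCm38.p6, an older build than that of the peaks, and all 3 genes had an entry. The Nr4a1 sequence is chr15:101266596-101266845 on the plus strand, the Nr4a2 sequence chr2:57124004-57124253 on the minus strand and the Nr4a3 sequence chr4:48045055-48045304 on the plus strand. Each reads 5′ to 3′ towards its gene, and capitals mark TGACG or its reverse complement CGTCA.
Nr4a1: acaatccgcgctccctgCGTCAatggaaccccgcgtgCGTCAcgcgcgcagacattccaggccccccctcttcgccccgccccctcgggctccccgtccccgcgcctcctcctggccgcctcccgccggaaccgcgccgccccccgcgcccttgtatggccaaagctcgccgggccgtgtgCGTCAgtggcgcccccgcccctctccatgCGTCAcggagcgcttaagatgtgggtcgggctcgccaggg
Nr4a2: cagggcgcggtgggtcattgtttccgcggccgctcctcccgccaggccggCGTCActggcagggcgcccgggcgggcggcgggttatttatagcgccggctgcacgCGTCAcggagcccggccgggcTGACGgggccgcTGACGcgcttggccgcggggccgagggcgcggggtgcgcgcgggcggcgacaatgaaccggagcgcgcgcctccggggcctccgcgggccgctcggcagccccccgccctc
Nr4a3: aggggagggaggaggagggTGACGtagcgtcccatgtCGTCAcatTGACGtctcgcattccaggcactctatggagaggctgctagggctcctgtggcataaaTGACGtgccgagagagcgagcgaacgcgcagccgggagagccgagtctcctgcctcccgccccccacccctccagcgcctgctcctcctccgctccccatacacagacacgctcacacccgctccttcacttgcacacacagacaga

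Each of the 3 sequences held 4 matches to the CRE core TGACG on either strand. In Nr4a1 they began 233, 213, 69 and 40 bases before the start, in Nr4a2 200, 144, 123 and 111 bases before it, and in Nr4a3 231, 213, 205 and 147 bases before it. Of 32851 promoter windows of the same length, 17.8% held at least 1 such match and 0.137% (45 windows) held 4 or more. The sequences were also rich in G and C, with 74.4% in Nr4a1, 80.0% in Nr4a2 and 63.6% in Nr4a3, against a median of 52.4% over all windows. None of the 3 held the full CRE TGACGTCA (1.55% of all windows did), the NBRE AAAGGTCA (1.34%), the AP-1 motif TGANTCA (6.75%), the MEF2 motif (3.20%) or the CArG box of the serum response element (1.47%). The GC box GGGCGG was found 3 times in Nr4a1, 4 times in Nr4a2 and 1 time in Nr4a3, and 32.7% of all windows held it. The TATA box TATAAA was found 1 time in Nr4a2 and in neither other member, against 12.4% of all windows. CRE core matches can lie inside a full CRE, and these counts describe letters only. The shares over all windows include the 3 members and were not matched for G and C content. The CRE core was 1 of 8 motifs searched.

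In GRCm38.p6 the start site of the Nr4a1 sequence lies 12.9 kb inside the gene's annotated lower end, so the annotated gene begins farther upstream. The Nr4a3 start site lies 0.227 kb inside the gene's lower end, and the Nr4a2 start site is the upper end of the gene. Positions of the genes in mm39 were known here only to the nearest 0.01 Mb, so every distance to a gene given from here on may be off by up to 5 kb. Whether a peak covers one of the printed sequences was not tested, since no mm39 sequence or annotation was used here. For the same reason the pathway genes (CREB, MEF2 and SRF family members, retinoid X receptors, dopamine neuron factors) and cell type markers are not analysed here. In the gene order of GRCm38.p6, Nr4a1 stands between the protein-coding genes Grasp and Atg101, and the predicted gene LOC105244150 overlaps Nr4a2, so a peak in a window may belong to a neighbour.

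Depth ran almost parallel to activation and bears on every count of peaks. The activated lists held 16374, 19710 and 15128 peaks in stressed mice and 39783 and 17283 in standard-reared mice. The non-activated lists held 50786, 12582 and 9008 peaks in stressed mice and 7076 and 14636 in standard-reared mice. Stressed non-activated replicate 1 stood apart from the other non-activated libraries. The lowest expected background per list, a measure of depth, was 0.805 to 1.64 fragments in the 5 activated libraries and 0.978 in stressed non-activated replicate 1, against 0.0744 to 0.341 in the other 4 non-activated libraries. The smallest peak width split the libraries in the same way, at 134 to 161 bp in the first 6 and 210 to 250 bp in the other 4. What sets this width was not tested, and depth cannot be told apart from it. The 6 libraries with the higher background are called the deeper libraries and the other 4 the shallower ones. Results are therefore given as the rank of a peak within its own list. The percentile of a peak is the share of intervals in the list whose fold over background is at or below its own, and the fold is the authors' value. That fold has 1 added to both the fragments and the background, which lowers it more where the background is small. Ranks from lists of different lengths show no change in openness by themselves, and the values at equal list length are given beside them.

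Nr4a1 stood in the peak-richest window of the 3. In activated libraries it held 4, 7 and 4 intervals in stressed mice and 8 and 5 in standard-reared mice, against 10, 5 and 3 in non-activated libraries of stressed mice and 1 and 5 of standard-reared mice. The groups overlapped, and the deeper libraries held 4 to 10 intervals against 1 to 5 in the shallower ones. Genome tiles of the same length (44675 tiles) held a mean of 0.159 to 1.14 intervals, so the Nr4a1 window held 6.27 to 17.6 times the mean, with a median of 12.3. It had more intervals than 86.8% to 99.96% of tiles, depending on the library. Between 53.6% and 86.8% of these tiles were empty. The 86.8% belongs to standard-reared non-activated replicate 1, with 1 interval, and is its share of empty tiles. Windows of other genes were not used as a reference, so the excess is over the genome and not over genes.

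Nr4a2 had 1, 1 and 3 intervals in stressed activated libraries and 4 and 2 in standard-reared activated ones. Non-activated libraries had 4, 1 and 1 in stressed mice and 1 and 1 in standard-reared mice. The activated and non-activated groups overlapped, and each shallower library held a single interval. The window held 2.4 to 9.37 times the mean of 47583 tiles of its length (median 4.25), of which 54.8% to 87.6% were empty.

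Nr4a3 had 3, 2 and 2 intervals in stressed activated libraries and 5 and 3 in standard-reared activated ones. Its non-activated counts were 2, 2 and 1 in stressed mice and 1 and 2 in standard-reared mice. The activated and non-activated groups again overlapped, with 2 to 5 intervals per deeper library and 1 or 2 per shallower one. The window held 1.31 to 6.10 times the mean of 33436 tiles of its length (median 4.47).

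**Figure D1:**
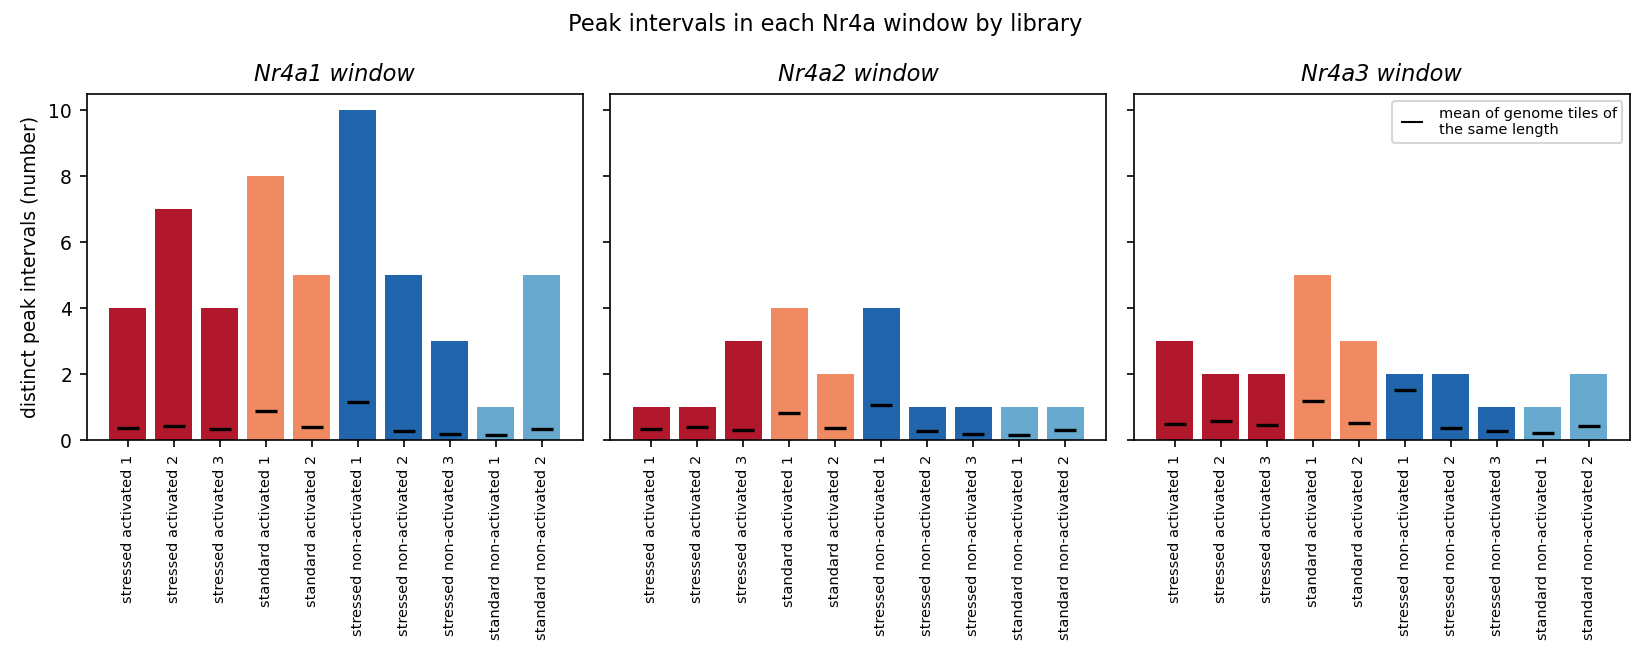
Number of distinct peak intervals (vertical axis) in the window of each Nr4a gene by library (horizontal axis), with a black line at the mean of all genome tiles of the same length in that library. The Nr4a1 window reached 10 intervals in the deep non-activated library of stressed mice, and every bar stands above its line.

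Every gene had exactly 1 region that was called in all 10 libraries. These 3 of 21 regions stand beside 7.10% of all merged regions in the series. At least 5 libraries called 8 of the 21, against 18.8% of all merged regions, and a single library called 6, against 65.9%. Of the 13 regions called in fewer than 5 libraries, 12 had no call in any shallower library, and the folds over background of these 12 lay between 3.02 and 6.16. For each gene the region with the highest median percentile over all libraries was taken as its lead region, without regard to groups, and it was the region called in all 10.

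**Figure D2:**
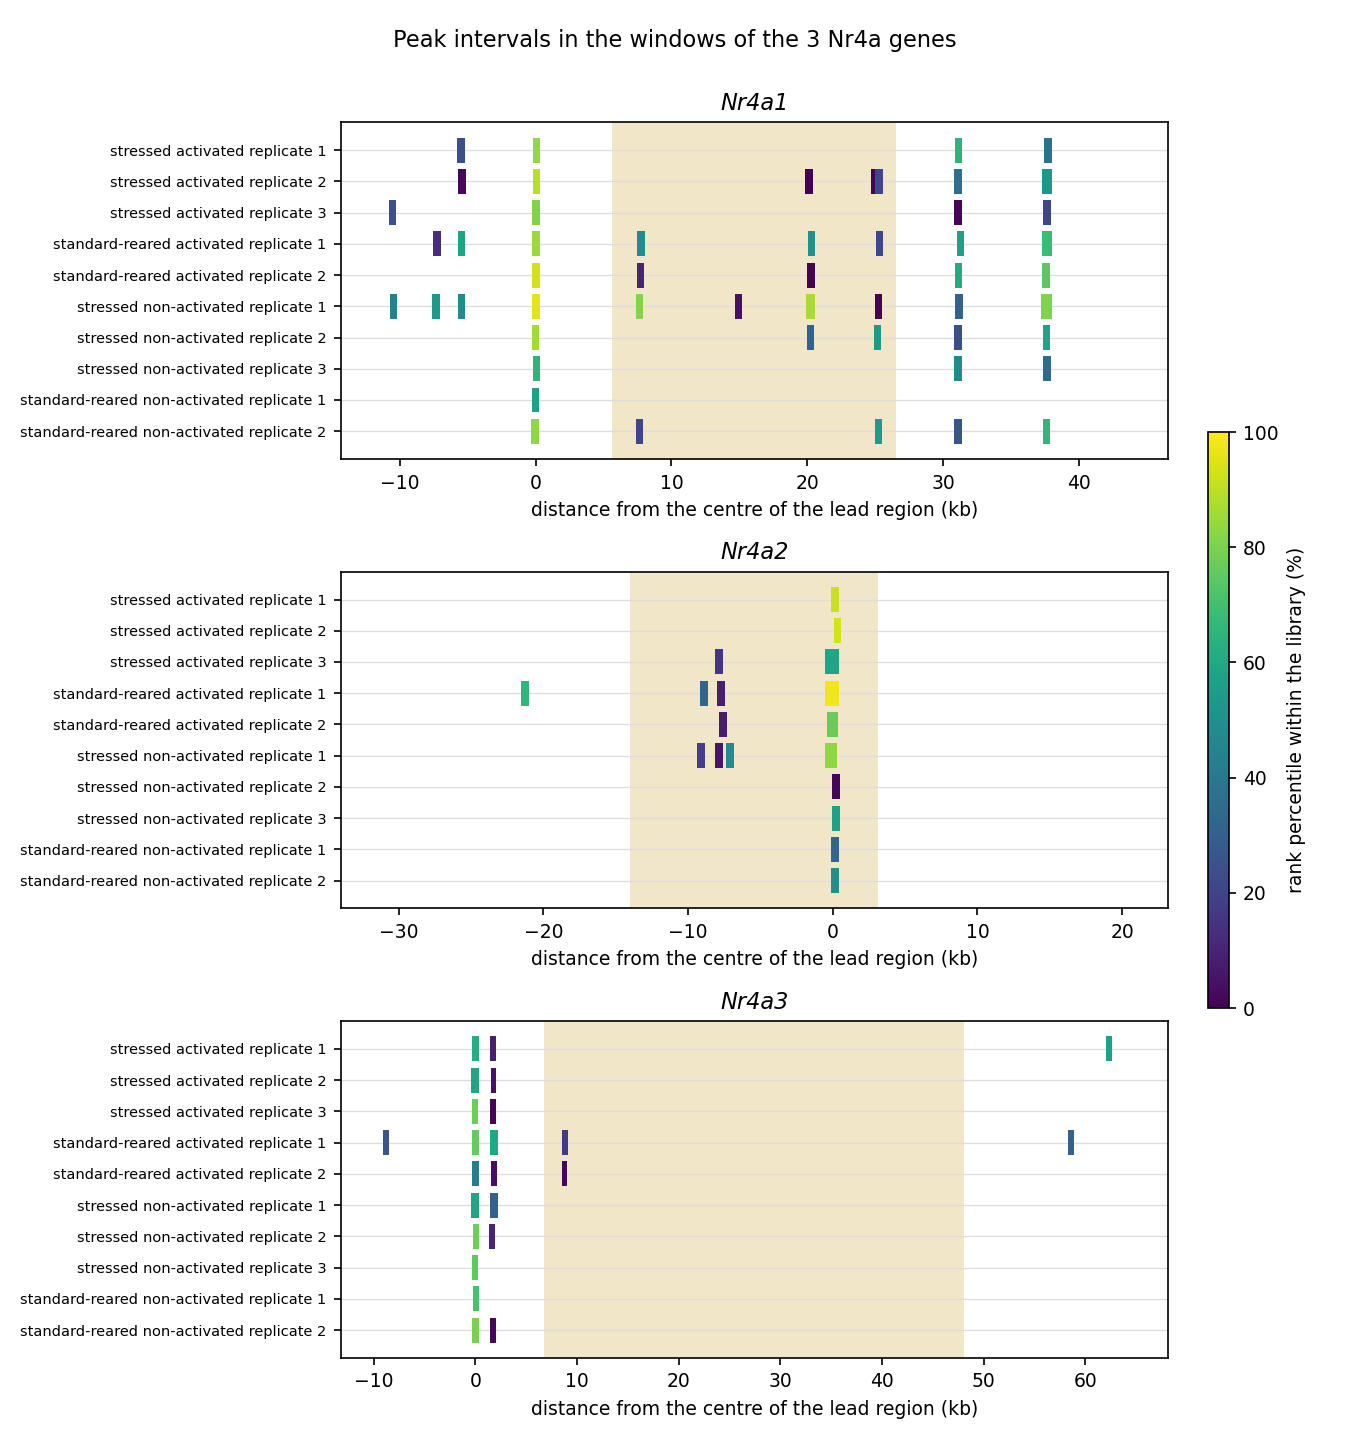
Peak intervals in the window of each Nr4a gene, with 1 row per library, the distance from the centre of the lead region in kb on the horizontal axis and the colour giving the rank percentile within the library. The shaded band is the gene body, placed to within 5 kb. The lead regions at distance 0 were called in all 10 libraries, and Nr4a1 held 9 further regions over the window.

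Nr4a2, the receptor of dopamine neurons, had a lead region at chr2:57013496-57014527 (1032 bp, mm39), whose centre lay 3.16 kb inside the approximate start of the gene. Its percentiles were 91.8, 93.3 and 58.2 in stressed activated replicates 1 to 3 and 97.9 and 76.6 in standard-reared activated replicates 1 and 2. In non-activated nuclei they were 83.0, 1.18 and 56.8 in stressed mice and 33.1 and 49.4 in standard-reared mice. The 5 activated libraries lay between 58.2 and 97.9, and 4 of the 5 non-activated ones lay below all of them. Only stressed non-activated replicate 1, the deep library of that class, overlapped the activated range. The deeper libraries as a whole had percentiles of 58.2 to 97.9 and the shallower ones 1.18 to 56.8, so apart from stressed non-activated replicate 1, activation and depth cannot be told apart at this region.

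The fold over background at the Nr4a2 lead summit was 7.56, 9.48 and 5.52 in stressed activated libraries and 10.3 and 7.87 in standard-reared activated libraries. It was 10.8, 3.33 and 6.32 in stressed non-activated libraries and 5.42 and 6.94 in standard-reared non-activated libraries. The highest fold of the 10 was thus in a non-activated library. The number of fragments piled up at the summit was 17, 21 and 10 in stressed activated and 34 and 18 in standard-reared activated libraries, against 28, 3 and 7 in stressed non-activated and 9 and 9 in standard-reared non-activated libraries. With 3 fragments in stressed non-activated replicate 2, the lowest percentile rests on very few reads.

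Across libraries the percentile of the Nr4a2 lead region spanned 96.7 points, wider than 99.9% of the 5296 regions called in all 10 libraries, whose median span was 49.3 points. Without stressed non-activated replicate 2 the span was 64.8 points, wider than 73.0% of them. Its median percentile of 67.4 was lower than that of most such regions, since 23.6% of them had a median at or below it. In stressed activated replicate 3 the region held 2 separate intervals with the same fold and the same pileup of 10 fragments.

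Nr4a1, the activity-induced receptor Nur77, had its lead region at chr15:101144001-101144686 (686 bp, mm39), with its centre 5.66 kb upstream of the approximate lower end of the gene. Percentiles were 83.7, 89.4 and 81.2 in stressed activated libraries and 85.0 and 93.4 in standard-reared activated libraries. They were 95.7, 86.1 and 65.0 in stressed non-activated libraries and 57.3 and 83.6 in standard-reared non-activated libraries. The groups overlapped in stressed mice, and the highest and the lowest of the 10 values were both in non-activated libraries. In standard-reared mice both activated values lay above both non-activated ones.

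Fold over background at the Nr4a1 lead summit was 6.63, 8.73 and 7.12 in stressed activated and 6.67 and 10.2 in standard-reared activated libraries, against 15.5, 10 and 6.86 in stressed non-activated and 6.45 and 11.2 in standard-reared non-activated libraries. The pileup was 25, 35 and 28 fragments in stressed activated and 36 and 33 in standard-reared activated libraries. It was 81, 18 and 9 fragments in stressed non-activated and 10 and 23 in standard-reared non-activated libraries. The 81 fragments of stressed non-activated replicate 1 exceeded every other library. The median percentile of 84.3 was at or above that of 61.0% of the regions called in all 10 libraries.

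Nr4a3, the related receptor Nor-1, had its lead region at chr4:48042850-48043643 (794 bp, mm39), with its centre 6.75 kb upstream of the approximate lower end of the gene. Percentiles were 62.0, 58.9 and 77.4 in stressed activated libraries and 76.5 and 41.8 in standard-reared activated libraries. They were 59.1, 77.4 and 75.0 in stressed non-activated libraries and 70.7 and 79.9 in standard-reared non-activated libraries. All groups overlapped. The 4 shallower libraries lay at 70.7 to 79.9 and the 6 deeper ones at 41.8 to 77.4.

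Fold over background at the Nr4a3 lead summit was 5.21, 5.66 and 6.78 in stressed activated and 5.44 and 5.25 in standard-reared activated libraries. It was 6.65, 8.82 and 7.74 in stressed non-activated and 7.23 and 10.6 in standard-reared non-activated libraries. Pileups were 31, 40 and 37 fragments in stressed activated and 59 and 32 in standard-reared activated libraries, against 87, 29 and 17 in stressed non-activated and 20 and 46 in standard-reared non-activated libraries. These exceeded the pileups of the other lead regions in each library but standard-reared activated replicate 2, where Nr4a3 had 32 fragments and Nr4a1 had 33. The median percentile of 72.9 was at or above that of 32.6% of the regions called in all 10 libraries. The percentile spanned 38.1 points over the libraries, and 21.0 points without standard-reared activated replicate 2.

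**Figure D3:**
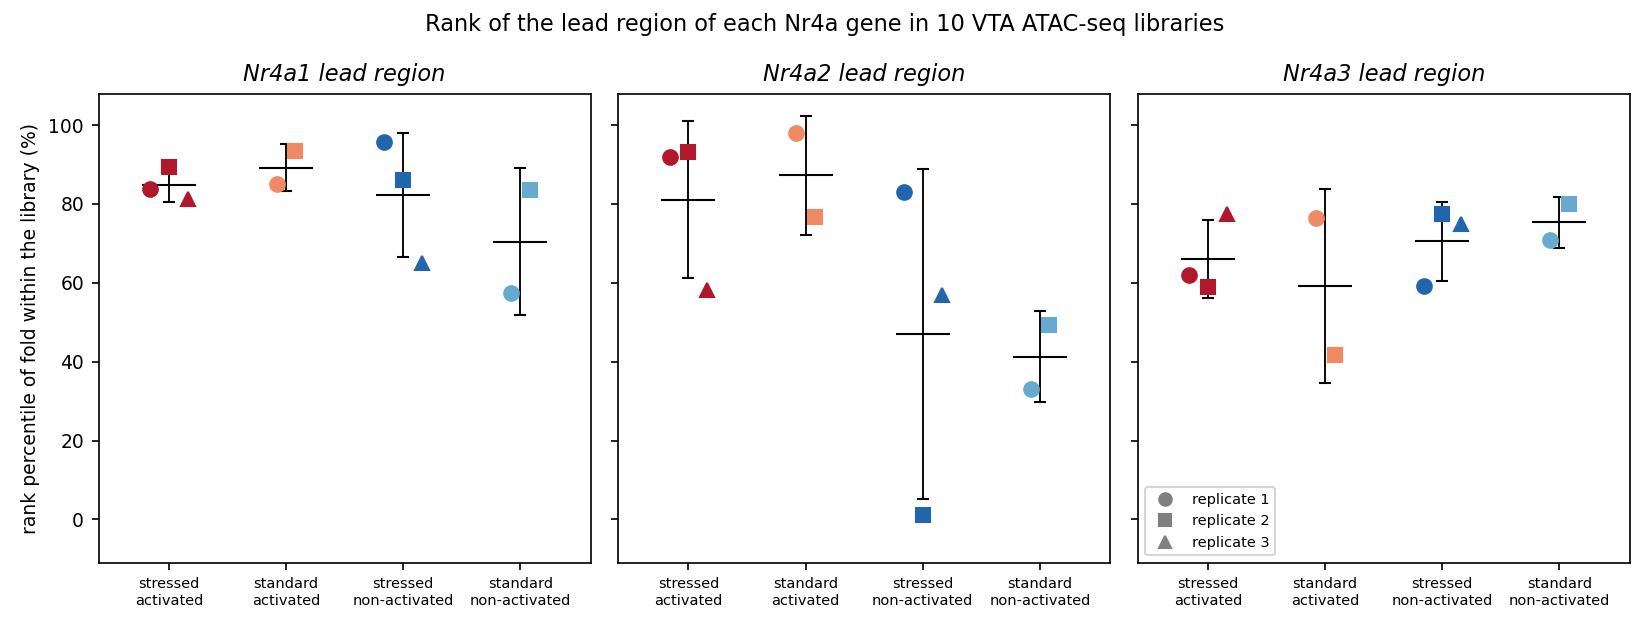
Rank percentile of the fold over background within the library (vertical axis, %) for the lead region of each Nr4a gene by group (horizontal axis), with 1 point per library and black lines for mean and SD. At Nr4a2 the 5 activated libraries lie between 58.2 and 97.9 and stressed non-activated replicate 2 lies at 1.18, and the activated and non-activated classes overlap at all 3 genes.

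**Figure D4:**
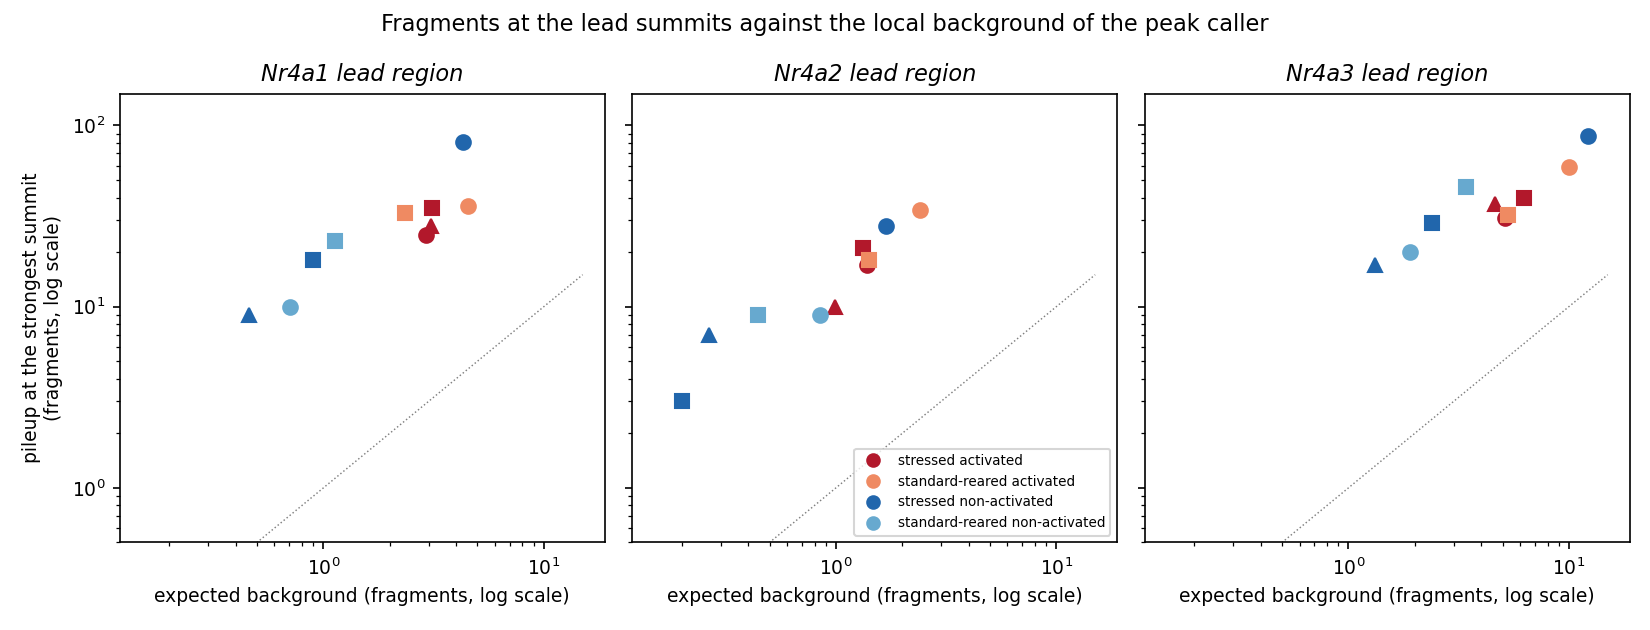
Fragments at the strongest summit (vertical axis, log scale) against the background expected by the peak caller (horizontal axis, log scale) for the lead region of each Nr4a gene, with 1 point per library and a dotted line where both are equal. All points lie above the line, and stressed non-activated replicate 1 has the most fragments at Nr4a1 (81) and Nr4a3 (87).

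Activated and non-activated nuclei were compared over all 5 libraries of each class. Nr4a2 averaged 83.6 ± 16.3 in activated and 44.7 ± 30.3 in non-activated libraries (SD, n = 5 each), a difference of 38.9 percentile points. The two-sided exact permutation test gave p = 0.0317 before and 0.476 after Benjamini-Hochberg adjustment over the 15 tests of 3 genes in 5 comparisons. The difference did not pass the adjusted threshold of 0.05, and the unadjusted p came from a region whose values ran with depth. With 5 libraries per class the smallest possible exact permutation p was 0.00794, so 1 difference alone could not pass the adjusted threshold. All regions called in 10 libraries had a median difference of 4.92 points in the same direction. Percentiles of the classes did not overlap at 0.887% of those 5296 regions with the activated libraries higher and at 2.79% with them lower, and none of the 3 lead regions was among them. Without stressed non-activated replicate 1 the Nr4a2 difference was 48.4 points (exact permutation p = 0.0159, adjusted 0.238), and without stressed non-activated replicate 2 it was 28.0 points (exact permutation p = 0.0635).

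Within the animals that gave both classes, the Nr4a2 percentile on full lists was higher in the activated library of 4 of 4 animals. The share of all regions for which this held is not given here. The differences were 8.83, 92.1 and 1.41 points in the 3 stressed animals and 43.5 points in the standard-reared animal. They ranged from near 0 to nearly the whole scale, and the largest rests on the library with 3 fragments. Pairing by animal gave a mean difference of 36.5 points (exact sign-flip permutation p = 0.125, the smallest p that 4 animals allow).

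At equal list length, with each list reduced to its 7076 peaks of highest −log10 q, the Nr4a2 lead region had percentiles of 81.1, 81.2 and 0 in stressed activated and 88.2 and 42.8 in standard-reared activated libraries. It had 0, 0 and 45.1 in stressed non-activated and 33.1 and 0 in standard-reared non-activated libraries, where 0 means that no peak was left. It was kept in 4 of 5 activated and 2 of 5 non-activated libraries. How often other regions in the series were kept in this way is not given here, so the count is not read as particular to Nr4a2. The difference of 43.0 points between the classes had an exact permutation p of 0.0873. Within the animal of stressed replicate 3 the direction reversed, with 0 in its activated and 45.1 in its non-activated library. The other animals that gave both classes kept the direction.

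Nr4a1 averaged 86.5 ± 4.85 in activated and 77.5 ± 15.9 in non-activated libraries (SD, n = 5 each), a difference of 8.98 points (exact permutation p = 0.310, adjusted 0.833). Within animals the activated library was higher in 3 of 4, with differences of −12.0, 3.25 and 16.2 points in stressed animals and 36.0 in the standard-reared one. The direction depended on list length. At 7076 peaks per list the percentiles were 62.3, 70.4 and 59.8 in stressed activated and 23.4 and 83.9 in standard-reared activated libraries, against 69.5, 75.3 and 55.4 in stressed non-activated and 57.3 and 66.0 in standard-reared non-activated libraries, a difference of −4.78 points.

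Nr4a3 averaged 63.3 ± 14.6 in activated and 72.4 ± 8.20 in non-activated libraries (SD, n = 5 each), a difference of −9.12 points (exact permutation p = 0.286, adjusted 0.833). Within animals it was higher in the activated library of 2 of 4, with differences of 2.90, −18.5 and 2.39 points in stressed animals and −29.0 in the standard-reared one. At 7076 peaks per list its percentiles were 17.3, 7.60 and 51.7 in stressed activated and 5.79 and 1.34 in standard-reared activated libraries, against 0.396, 59.9 and 68.2 in stressed non-activated and 70.7 and 58.5 in standard-reared non-activated libraries. The 5 values from 0.396 to 17.3 were all in deeper libraries, among them stressed non-activated replicate 1, and stressed activated replicate 3 was the 1 deeper library above them. The difference was −34.8 points (exact permutation p = 0.0794, adjusted 0.655).

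In stressed mice alone, 3 activated libraries were compared with 3 non-activated ones, where no p can go below 0.1. Nr4a2 averaged 81.1 ± 19.8 in activated and 47.0 ± 41.8 in non-activated libraries (SD, n = 3 each), a difference of 34.1 points (exact permutation p = 0.2, adjusted 0.833). Nr4a1 averaged 84.8 ± 4.19 in activated and 82.3 ± 15.7 in non-activated libraries, a difference of 2.49 points (exact permutation p = 0.9). Nr4a3 averaged 66.1 ± 9.91 in activated and 70.5 ± 9.98 in non-activated libraries, a difference of −4.41 points (exact permutation p = 0.7). Each difference was smaller than the SD of the non-activated libraries, and the values of the classes overlapped at all 3 genes. Non-overlapping percentiles occurred at 2.61% of the regions called in all 10 libraries with activated higher and at 12.0% with activated lower. The Nr4a2 difference was 52.1 points without stressed non-activated replicate 1 and 11.2 points without stressed non-activated replicate 2, the library with 3 fragments. The Nr4a1 difference was 9.20 points without stressed non-activated replicate 1 and −6.16 without stressed non-activated replicate 3. The Nr4a3 difference was −10.1 points without stressed non-activated replicate 1 and −0.821 without stressed activated replicate 2. At equal list length the stressed differences were 39.1 points at Nr4a2, −2.59 at Nr4a1 and −17.3 at Nr4a3 (exact permutation p = 0.4, 0.8 and 0.6).

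In standard-reared mice, 2 activated libraries were compared with 2 non-activated ones, where no p can go below 0.333. Sex differs between these classes too, as the activated libraries came from a male and a female and the non-activated ones from females only. At Nr4a2 the activated libraries averaged 87.2 ± 15.1 and the non-activated ones 41.2 ± 11.5 (SD, n = 2 each), a difference of 46.0 points (exact permutation p = 0.333). At Nr4a1 the activated libraries averaged 89.2 ± 5.97 and the non-activated ones 70.5 ± 18.5, a difference of 18.7 points (exact permutation p = 0.333). Both genes had non-overlapping values with activated higher, which was the case at 39.8% of the regions called in all 10 libraries, and 11.4% did not overlap in the other direction. The median difference of all those regions was 11.7 points. Nr4a3 averaged 59.2 ± 24.6 in activated and 75.3 ± 6.49 in non-activated libraries, a difference of −16.2 points with overlapping values (exact permutation p = 0.667).

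The size of these standard-reared differences moved when 1 library was left out. At Nr4a1 the difference was 5.61 points without standard-reared non-activated replicate 1 and 31.8 without replicate 2 of that group. At Nr4a3 it was −33.5 points without standard-reared activated replicate 1 and 1.19 without replicate 2 of that group. At Nr4a2 it stayed between 35.4 and 56.7 points with any of the 4 left out. At equal list length the difference was 49.0 points at Nr4a2, −8.06 at Nr4a1 and −61.0 at Nr4a3 (exact permutation p = 0.333, 1 and 0.333). The Nr4a3 values then no longer overlapped, with 5.79 and 1.34 in activated and 70.7 and 58.5 in non-activated libraries. The share of all regions without overlap at this list length is not given here, so this is not read as particular to Nr4a3.

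Rearing was compared within each class, with 3 stressed against 2 standard-reared libraries and 0.1 as the smallest p. In activated nuclei the stressed minus standard-reared difference was −4.41 points at Nr4a1, −6.13 at Nr4a2 and 6.93 at Nr4a3 (exact permutation p = 0.4, 0.8 and 0.8). In non-activated nuclei it was 11.8 points at Nr4a1, 5.78 at Nr4a2 and −4.83 at Nr4a3 (exact permutation p = 0.5, 0.8 and 0.8). The adjusted p was 0.857 for all 6, and stressed and standard-reared values overlapped in each. Among the regions called in all 10 libraries, 4.25% did not overlap with stressed activated libraries higher and 21.1% with them lower, and in non-activated nuclei the shares were 11.1% and 2.36%. At equal list length the stressed minus standard-reared difference in activated nuclei was 10.6 points at Nr4a1, −11.4 at Nr4a2 and 21.9 at Nr4a3 (exact permutation p = 0.8, 0.8 and 0.2). In non-activated nuclei it was 5.09, −1.52 and −21.8 points, in the same order of genes (exact permutation p = 0.5, 1 and 0.7). The non-activated groups also differ in sex, since the standard-reared non-activated libraries were both from females.

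The other regions of the Nr4a1 window lay on both sides of the lead region. Region chr15:101175280-101175796, 4.64 kb above the approximate upper end of the gene, was called in 9 libraries with percentiles of 1.42 to 64.6 where called. Region chr15:101181526-101182369, 11.1 kb above that end and towards Atg101, was called in 9 libraries with 20.9 to 80.8. Both lacked a call in standard-reared non-activated replicate 1, the shortest list. Inside the gene body, chr15:101169212-101169827 was called in 5 libraries, with 21.5 in 1 stressed and 21.1 in 1 standard-reared activated library, against 0.486 and 54.1 in 2 stressed and 54.9 in 1 standard-reared non-activated library.

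Region chr15:101164258-101164884 lay 14.6 kb above the approximate lower end of Nr4a1. It was called in 5 libraries, with percentiles of 0.244 in stressed activated replicate 2, 50.6 and 0.451 in standard-reared activated replicates 1 and 2, and 86.8 and 31.4 in stressed non-activated replicates 1 and 2. In stressed non-activated replicate 1 it reached a fold of 11.8 with 95 fragments, the largest pileup of any region in the 3 windows, against 10 to 31 fragments in the other 4 libraries. Region chr15:101151777-101152426, 2.10 kb above the lower end, was called with 47.7 and 9.82 in both standard-reared activated libraries, 81.4 in replicate 1 of the stressed and 20.3 in replicate 2 of the standard-reared non-activated group. It was called in 0 of 3 stressed activated libraries.

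Away from the lead region, Nr4a3 had its next most frequent region 1.84 kb higher at chr4:48044664-48045513, called in 8 libraries with percentiles of 1.49 to 59.5 where called. No call was made there in the libraries with the shortest lists, replicate 3 of the stressed and replicate 1 of the standard-reared non-activated group. Its highest percentile, 59.5, was in standard-reared activated replicate 1, and the next, 30.5, in stressed non-activated replicate 1. Region chr4:48051928-48052224 was called in both standard-reared activated libraries and in no other, at percentiles of 17.3 and 1.70 with 15 and 8 fragments. At Nr4a2, region chr2:57006004-57006535 in the gene body was called in stressed activated replicate 3, both standard-reared activated libraries and stressed non-activated replicate 1, at percentiles of 5.83 to 15.4.

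Of the 15 regions in the 3 windows that at least 2 libraries called, 3 were called in both standard-reared activated libraries and in neither standard-reared non-activated one, 1 at each gene. That is 20% of them, beside 10.9% of the 25437 such regions in the series, and none of the 15 had the opposite pattern, beside 0.169%. Of the same 15, 2 (13.3%, beside 3.81%) were called in both standard-reared activated libraries and in no stressed activated one, at Nr4a1 and Nr4a3. The Nr4a3 region, chr4:48051928-48052224, is also among the 3 above. None of the 15 went the other way, beside 0.366%. No region of the windows separated stressed activated from stressed non-activated libraries (0.173% of all such regions did with activated called, 0.0708% the other way) or all activated from all non-activated libraries (0.0275% and 0%). None separated stressed from standard-reared non-activated libraries either (0.358% with stressed called and 0.0315% the other way). Standard-reared activated replicate 1 had the second longest list and standard-reared non-activated replicate 1 the shortest, and the part of list length in these counts was not tested.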

How the data were processed

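Peak lists of 10 ATAC-seq libraries were used, called per library and not pooled, as the authors deposited a list per library. The submitters' processing notes name MACS2 2.2.9.1, Bowtie2 2.4.5, fastp 0.23.4, R 4.4.2, SAMtools 1.13 and the build mm39. For the caller settings, read shift and duplicate filter, the sources used here give nothing. Any of them could change which peaks exist. In the lists deposited by the authors, the fold is a linear ratio over background at the summit, p and q values are −log10, and the score is a whole number derived from q.

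Chromosomes 1 to 19, X and Y were kept, summit entries of 1 interval were counted once, and intervals overlapping by 1 bp were merged into regions. Windows used gene positions rounded to 0.01 Mb as lower ends, gene lengths from RefSeq (GRCm38.p6) and 20 kb of flank. Named regions are the lead regions and those called in at least 5 libraries or separating 2 groups. The planned region over each gene start could not be placed. Pileup and background were solved from each fold and p within a relative misfit of 0.0001 (every 20th interval checked, 100% whole). No total read number follows from the lists, so depth is relative only. Lead percentiles, with 0 where no peak was called, were compared by two-sided exact permutation with Benjamini-Hochberg adjustment over 15 tests. In stressed mice the library names show that replicate numbers mark the same animal, so a replicate block by animal was an alternative. Deviations of same-animal libraries correlated at 0.0262 to 0.0926 over 5296 regions, against −0.0699 to 0.0173 for other pairs. The members, lists and tests were chosen with earlier results of these data known. Alternatives were a rank by q, a −log10 q of at least 5, equal list length, other windows and overlaps, and each library left out. The counting and the pileup solution were tested on simulated data. Tools were SciPy 1.17.1, pandas 2.3.3 and NumPy 2.4.6 under Python 3.11.15, with Matplotlib 3.10.9 for plots.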

Additional observations from a re-analysis of the deposited data

Results flagged for a closer look

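Among 18 groups of 5 libraries searched for a value far from the others, 3 held one. The limit used lets through about 1 in 20 by chance where groups are independent and values normally spread. These groups share their libraries, so the 3 are not set against that rate. All 3 were in stressed non-activated replicate 1, the deepest and longest non-activated list, and are not separate observations. Its pileup at the Nr4a1 lead region was 81 fragments, against at most 23 in the other non-activated libraries. Its pileup at the Nr4a2 lead region was 28 fragments, against at most 9, and its Nr4a2 window held 4 intervals, against 1 in each of the others. The part of depth in these values was not tested.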

How the results depend on the processing

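No lead-region difference passed the adjusted threshold in any setting tried. The comparisons within rearing or class are too small to pass it. Over all libraries the smallest possible exact permutation p is 0.00794, too large for 1 difference alone to pass after adjustment over 15 tests. Of the 231 alternative values of the 15 differences, 217 kept their direction. A stricter overlap, the strongest interval in the window, windows moved by 5 kb and the gene-middle position returned the main values for all 15 differences. These settings could reverse nothing, so the 217 are no measure of robustness. At the length of the shortest list, the Nr4a1 difference reversed to −2.59 points (stressed activated minus stressed non-activated), −8.06 (standard-reared activated minus non-activated), −4.78 (all activated minus non-activated) and 10.6 (stressed minus standard-reared activated), and the Nr4a2 difference of stressed minus standard-reared non-activated nuclei to −1.52. The cause was not tested. Leaving out 1 library at a time reversed some differences too. At Nr4a1 the range was −6.16 to 9.20 for activation in stressed mice (negative without stressed non-activated replicate 3) and −1.29 to 24.9 for rearing in non-activated nuclei (negative without standard-reared non-activated replicate 1). At Nr4a2 it was −16.8 to 5.30 for rearing in activated nuclei (positive without stressed activated replicate 3 or standard-reared activated replicate 1) and −12.2 to 28.7 in non-activated nuclei (negative without stressed non-activated replicate 1 or standard-reared non-activated replicate 1). At Nr4a3 it was −33.5 to 1.19 for activation in standard-reared mice and −10.4 to 24.3 for rearing in activated nuclei (both reversed without standard-reared activated replicate 2), and −9.42 to 0.885 for rearing in non-activated nuclei (positive without stressed non-activated replicate 1).

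Activated minus non-activated differences over all libraries kept their direction with any 1 library left out: 28.0 to 48.4 points at Nr4a2, 3.93 (without standard-reared non-activated replicate 1) to 13.5 at Nr4a1 and −12.6 to −3.73 (without standard-reared activated replicate 2) at Nr4a3. For Nr4a2 they were 30.6 points when ranked by q (exact permutation p = 0.0794) and 41.3 with a −log10 q of at least 5 (exact permutation p = 0.135). With the replicate block by animal, the stressed differences were 2.49 points at Nr4a1, 34.1 at Nr4a2 and −4.41 at Nr4a3 (exact sign-flip permutation p = 0.75, 0.25 and 1, the smallest possible being 0.25), and over 4 animals 10.9, 36.5 and −10.5 (p = 0.375, 0.125 and 0.5, the smallest possible being 0.125, so the block could make no call). Intervals in the windows, 52 at Nr4a1, 19 at Nr4a2 and 23 at Nr4a3, fell to 33, 9 and 12 with a −log10 q of at least 5, and Nr4a3 had 35 with every summit entry counted. Windows moved by 5 kb, the rounded position taken as the gene's middle and ranks over autosomes alone were settings added after seeing the data. The window settings left every difference unchanged, and ranks over autosomes alone reversed none. A region within 1 kb of each gene start was not run. The shallower libraries limit the calls: a missing peak there is not a closed region.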
